A study of Mus musculus with 6 samples.

Results

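Splicing factors and core spliceosome proteins were followed in the transcriptome of HT22 cells, an immortalised mouse hippocampal neuronal line. The members are the genes of the deposited expression table whose symbols begin with Srsf and a digit, Hnrnp, Snrp, Sf3a, Sf3b or U2af, which gave 55 of the 21878 gene symbols listed. They comprise 11 SR proteins, 20 heterogeneous nuclear ribonucleoproteins (hnRNPs), 12 Snrp proteins of the small nuclear ribonucleoproteins and 12 SF3 and U2AF proteins. The control group had 3 libraries and the Al group, exposed to 120 µM aluminum maltolate for 24 h, had 3. The study's methods describe a control kept in plain DMEM and a separate maltol control, and the sequenced group is named only as control, so the groups differ in the aluminum complex and, if plain DMEM was used, in maltol as well. Every library was an input library of a MeRIP-seq experiment, made from fragmented RNA that had not been enriched for m6A. The study used a single cell line, so the replicates are cultures of that line and not animals.

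Introns are removed from pre-mRNA by the spliceosome, which is assembled from small nuclear RNAs and their proteins. The U1 particle marks the 5′ splice site, U2AF and the U2 particle mark the 3′ end of the intron, and a ring of 7 Sm proteins forms the common core of most spliceosomal particles. SR proteins mostly promote the use of nearby exons, while hnRNPs coat the nascent RNA and often act against them, and the balance between both families is known to contribute to alternative splicing in neurons. Many of these genes regulate their own output through alternative exons that send the transcript to nonsense-mediated decay.

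Libraries were compared as FPKM, the reads of a gene per kilobase of its length and per unit of sequencing depth, after each library had been put on a common scale with median-of-ratios size factors (scaled FPKM). The values rest on 37902258 to 44374043 reads in the control libraries and on 21047132 to 26572484 in the Al libraries. The 50 most abundant genes held 18.7% of the summed FPKM on average in control cultures against 31.5% in Al cultures. Of 9 neuronal markers only Tubb3 and Syn1 reached 1 FPKM in every library, and Nefm and Snap25 were at 0 in all 6. Syn1 was lower in every Al library, and the summed scaled FPKM of the neuronal list was 10.97 to 11.56 in the control libraries against 6.689 to 8.333 in the Al libraries. Of the astrocyte, microglia and oligodendrocyte lists of 6 markers each, 1, 1 and 0 reached 1 FPKM in every library. The astrocyte sum, nearly all of it Slc1a3, was 12.04 to 19.81 against 1.98 to 2.922 and did not overlap. The microglia sum, nearly all of it Tmem119, was 33.71 to 41.55 against 23.98 to 90.9, and the oligodendrocyte sum was 0.1714 to 0.3736 against 0.4979 to 1.386. All 5 fibroblast markers exceeded 1 FPKM, with sums of 2083 to 3364 against 3594 to 5136 that were carried by 3 collagen genes. Col1a1 and Col1a2 were higher and Pdgfra and Dcn lower in every Al library. The 4 proliferation markers summed to 361.1 to 389.7 against 491.2 to 545.3, with Mki67, Ccnb1 and Pcna higher and Top2a lower in every Al library. With FPKM as deposited the groups overlapped in both sums, at 2436 to 3970 against 2916 to 4104 for the fibroblast list and at 426.1 to 455.7 against 392.5 to 506.4 for the proliferation list. The part of these markers in the members' values was not tested. In bulk RNA, a change in the kinds of cells and a change of RNA per cell cannot be told apart.

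With the libraries scaled by size factors most members were higher in the Al group and none was lower, whereas 6 were lower with FPKM as deposited and 12 as TPM, where 42.0% and 53.1% of all genes were lower. A gene was called at a raw P under 0.05 in limma and a log2 fold change beyond 0.58 in either direction. Of the 53 members tested, 33 rose, 0 fell and 20 were not called. On the raw P alone, 2 members were lower, Sf3a2 and U2af1l4, and voom on the reads behind the FPKM also called 0 members lower. Among all 12889 genes tested, 26.2% rose and 24.4% fell. At a Benjamini-Hochberg adjusted P under 0.05 with the same fold change, all 33 members were still called, where 25.5% of all genes were called higher. The median log2 fold change was 0.98 over the members and 0.03 over all genes, and the median of the members was 0.50 as deposited, 0.49 with quantile normalization and 0.20 as TPM. For 41 members every Al library stood above every control library in scaled FPKM, against 35.1% of all genes. For 3 members every Al library stood below every control library, Srsf6, Sf3a2 and U2af1l4, against 33.1% of all genes.

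**Figure D1:**
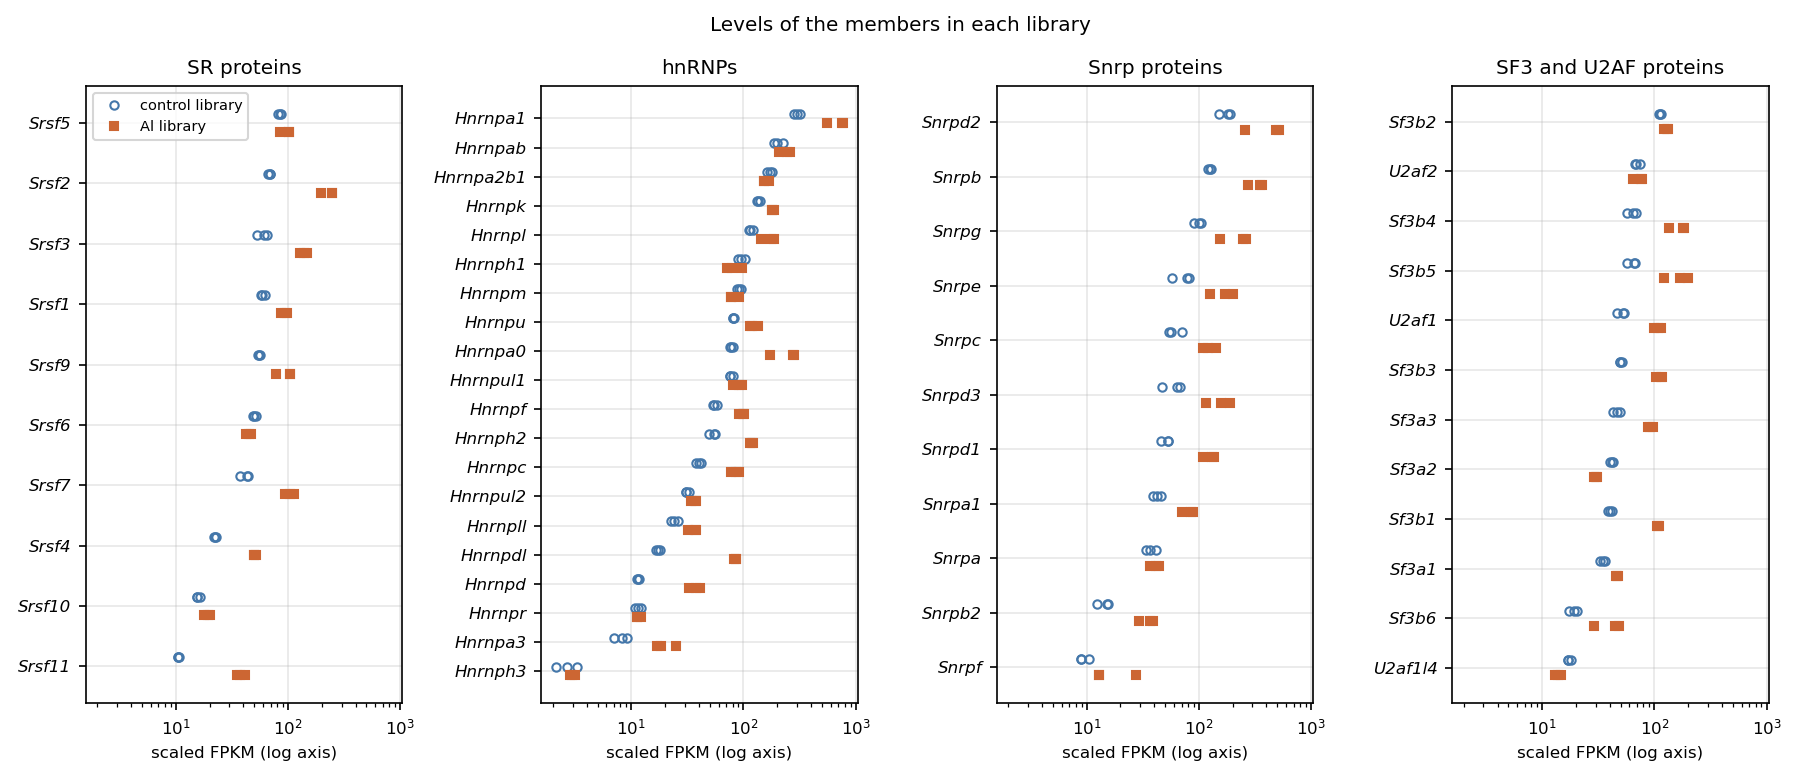
Scaled FPKM on a log axis for the 53 tested members, with circles for the 3 control libraries and squares for the 3 Al libraries, ordered within each group by the control mean. The squares of Srsf2, Srsf11, Hnrnpd, Hnrnpdl and most Snrp genes stand apart from the circles, while those of Hnrnpa2b1, Hnrnpm, Hnrnpr, Snrpa and U2af2 overlap them.

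**Figure D2:**
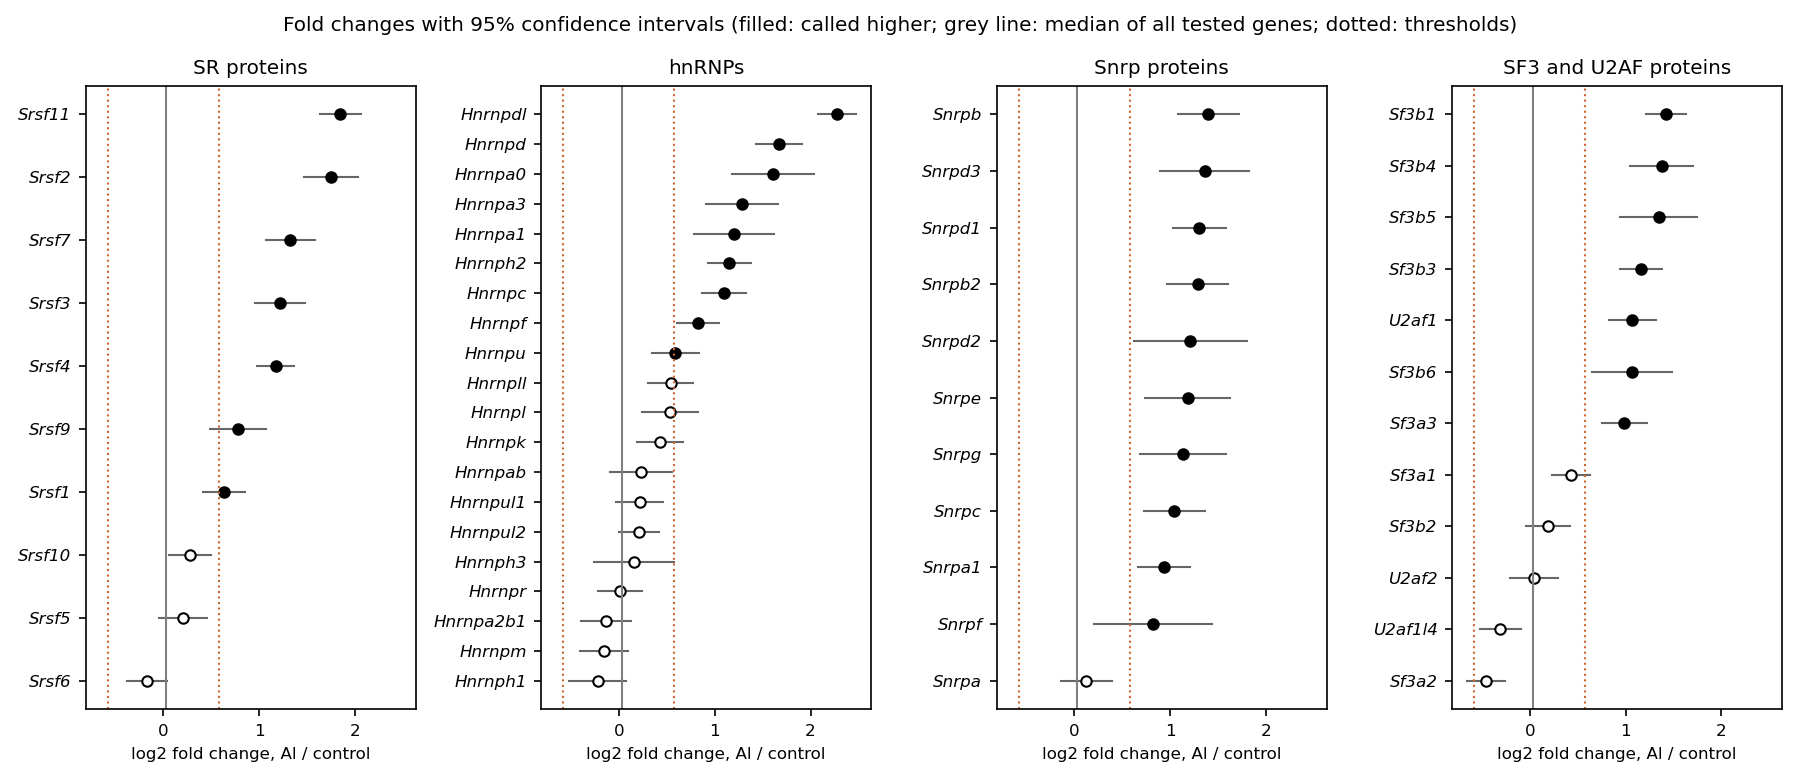
Log2 fold changes of the 53 tested members with 95% confidence intervals, filled where the member was called higher. The grey line is the median of all tested genes (0.03, with size factors) and the dotted lines are the thresholds of 0.58 and -0.58, and 10 of 11 tested Snrp genes are filled against 9 of 20 hnRNPs.

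The size of these differences depended on how the libraries were put on 1 scale. With FPKM as deposited, the median over all tested genes moved to -0.43, and 25 members were called higher and 6 lower, against 14.0% and 42.0% of all genes. When the libraries were given equal sums (TPM), that median was -0.72, and 8 members were higher and 12 lower, against 9.30% and 53.1% of all genes. With quantile normalization 22 were higher and 4 lower, against 22.2% and 24.2% of all genes. As a share of the summed FPKM, the members together held 1.08% ± 0.0248 in control cultures against 1.15% ± 0.0260 in Al cultures (SD, n = 3 each). Multiplying each library by 1 factor moves all genes nearly alike, so the distance of the members' median from that of all genes was bound to stay close, at 0.95 with size factors, 0.93 as deposited and 0.91 as TPM. With quantile normalization, which is not of this kind, the distance was 0.52 over the members and fell from 0.51 to 0.18 for the hnRNPs, and 38 of the 53 lay above the median of all genes against 46 with size factors. Hnrnpa0, Hnrnpd, Hnrnpdl, Sf3b1, Sf3b4, Snrpb, Srsf2 and Srsf11 were called higher under every one of these scalings. The other 25 called members were not called as TPM, so that a rise given for them holds for size factors and not for TPM. Of these, 8 were also not called as deposited, namely Hnrnpf, Hnrnpu, Sf3a3, Snrpa1, Snrpc, Snrpf, Srsf1 and Srsf9. With quantile normalization 11 were not called, which were those 8 without Snrpf, and Hnrnpa1, Snrpd2, Snrpg and U2af1. The members called lower were Hnrnpa2b1, Hnrnph1, Hnrnpm and Sf3a2 with quantile normalization, these with Srsf6 and U2af1l4 as deposited, and these 6 with Hnrnph3, Hnrnpr, Sf3b2, Snrpa, Srsf5 and U2af2 as TPM.

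**Figure D3:**
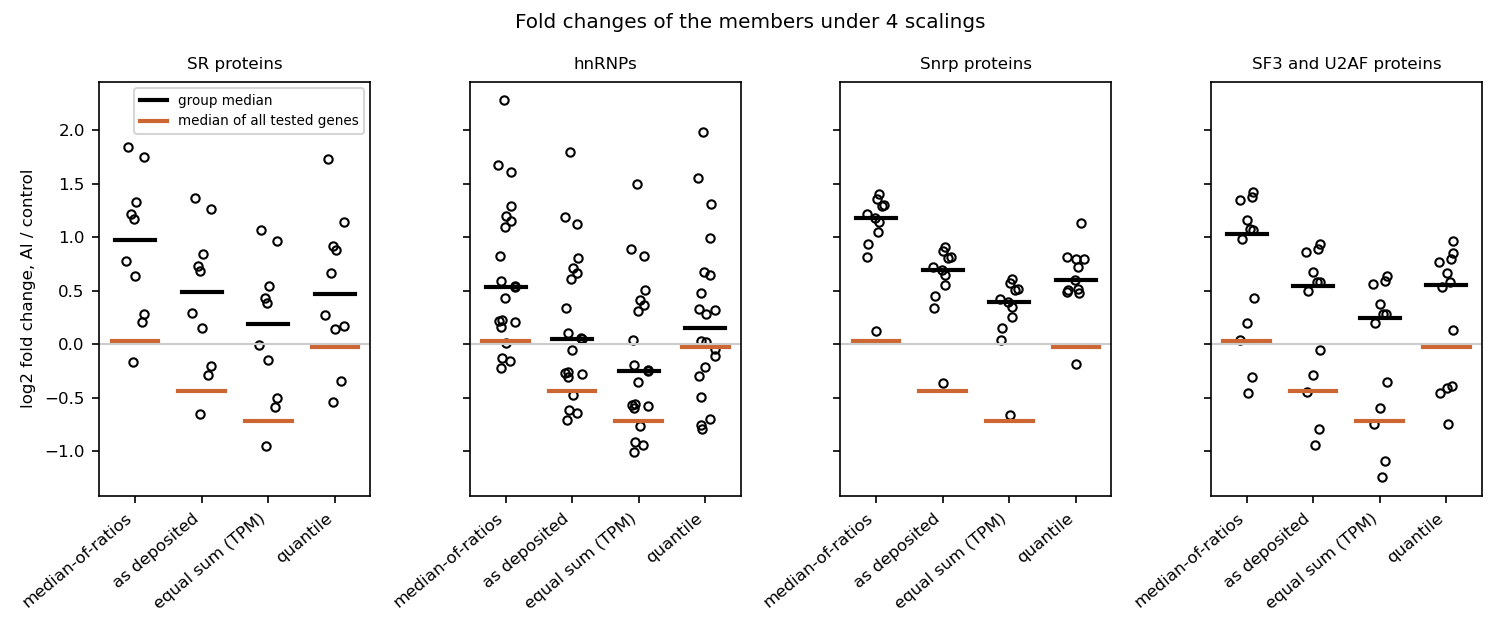
Log2 fold change of every tested member (circles) under 4 ways of scaling the libraries, in 4 panels by group, with the group median in black and the median of all tested genes in orange. The orange line moves from 0.03 to -0.43 and -0.72, and the black lines move down with it.

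SR proteins, which bind exonic enhancers and carry arginine- and serine-rich tails, were called higher for 7 of the 10 tested and lower for none, with a median log2 fold change of 0.97. As deposited 5 were higher and 1 lower with a median of 0.49, and as TPM 2 were higher and 2 lower with a median of 0.19. Of all genes, 26.2% were higher and 24.4% lower with size factors, 14.0% and 42.0% as deposited, and 9.30% and 53.1% as TPM. With quantile normalization the median was 0.47. Srsf12 was the eleventh and had 0 reads in each of the 6 libraries. The scaled FPKM of the 10 summed to 466 ± 17.3 in control cultures against 909 ± 58.8 in Al cultures, and their share of the summed FPKM was 0.148% ± 0.00512 and 0.167% ± 0.0149 (SD, n = 3 each).

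Srsf11, an SR-related protein that contacts U2AF, showed the largest increase in the group. Its scaled FPKM was 10.4, 10.6 and 10.5 in control replicates 1 to 3, against 41.1, 35.4 and 37.6 in Al replicates 1 to 3, the order kept for every gene below. The groups did not overlap and every Al library was above 3 times the control values, a log2 fold change of 1.85 ± 0.09 (SE, adjusted P = 4.93e-06). Srsf2 (chromosome 11, 116849901 to 116853094), which bridges the splice sites and also takes part in transcription elongation, held 66.4, 68.5 and 69.5 in the control libraries against 249, 245 and 197 in the Al libraries. It rose by a log2 fold change of 1.75 ± 0.12 (SE, adjusted P = 1.45e-05) and passed Srsf5 as the most abundant SR gene. Exons of Srsf2 overlap those of Mettl23 and Mfsd11 on the other strand, and although the libraries were made with a stranded kit, whether the counting used strand was not given.

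The closely related pair of Srsf3, a small SR protein tied to mRNA export, and Srsf7, its zinc-knuckle relative, both rose. Srsf3 was at 53.4, 64.3 and 61.5 in the control libraries and at 148, 140 and 128 in the Al libraries, a log2 fold change of 1.21 ± 0.12 (SE). Srsf7 was at 37.7, 42.8 and 43.7 in the control libraries and at 113, 105 and 93.8 in the Al libraries, a log2 fold change of 1.33 ± 0.11 (SE). The control and Al libraries did not overlap for either gene. The ratio of Srsf3 to Srsf7 was 1.42, 1.50 and 1.41 in the control libraries against 1.31, 1.33 and 1.36 in the Al libraries, again without overlap. Srsf3 has 3 processed copies in the genome with at least 95% identity, so part of its reads may have been assigned elsewhere.

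Srsf4 rose by a log2 fold change of 1.17 and Srsf9 by 0.77. Srsf1, the founding member of the family and a regulator of 5′ splice site choice, was at 57.8, 61.8 and 58.7 in the control libraries and at 93.2, 86.7 and 97.2 in the Al libraries. Its increase was smaller, with a log2 fold change of 0.63 ± 0.10 (SE, adjusted P = 0.00057), and its direction turned as TPM (-0.15), as did that of Srsf9 (-0.01). Srsf5 (0.20), Srsf10 (0.28) and Srsf6 (-0.17) were not called. Srsf6 ranged from 48.4 to 52.0 in the control libraries and from 42.3 to 46.3 in the Al libraries, which lay just below without reaching the fold threshold. It was called lower as deposited, at a log2 fold change of -0.66.

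The upstream sequences of the member that rose most and of the member with the lowest fold change are shown for each group, among those whose window of 120 bases before the start site holds at most 30 annotated exon bases. They come from RefSeq on GRCm38.p6, are written 5′ to 3′ on the strand of the gene, and carry capitals where 1 of 4 promoter motifs matches on either strand. The GC box was searched as GGGCGG, the site of Sp factors. The ETS core was searched as CCGGAAG, the site of ETS family factors. The CCAAT box was searched by the letters of its name. The TATA box was searched as TATAAA, which places the start site in some promoters. No matches overlapped in the windows printed. For the SR proteins they are Srsf2 (minus strand, chr11:116853095-116853214) and Srsf6 (plus strand, chr2:162931388-162931507).
Srsf2: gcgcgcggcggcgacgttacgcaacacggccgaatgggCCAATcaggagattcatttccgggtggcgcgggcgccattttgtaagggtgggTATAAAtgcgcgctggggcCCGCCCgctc
Srsf6: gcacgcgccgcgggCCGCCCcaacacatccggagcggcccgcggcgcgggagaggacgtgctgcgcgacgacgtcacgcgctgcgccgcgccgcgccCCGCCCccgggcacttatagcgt
The Srsf2 window held 1 GC box, 1 CCAAT box and 1 TATA box, and the Srsf6 window held 2 GC boxes.

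The hnRNPs were split. Of 20 tested, 9 were called higher, 0 lower and 11 were not called, with a median log2 fold change of 0.54. As deposited 7 were higher and 3 lower with a median of 0.05, and as TPM 3 were higher and 5 lower with a median of -0.25. Of all genes, 26.2% were higher and 24.4% lower with size factors, 14.0% and 42.0% as deposited, and 9.30% and 53.1% as TPM. The median over all genes was -0.43 as deposited and -0.72 as TPM, below that of the hnRNPs. With quantile normalization the median was 0.15. The summed scaled FPKM of the group was 1605 ± 61.7 in control cultures against 2593 ± 242 in Al cultures, and its share of the summed FPKM was 0.508% ± 0.00832 and 0.475% ± 0.0234 (SD, n = 3 each).

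The D subfamily, which binds AU-rich elements as well as splicing silencers, held the largest increases. Hnrnpdl (chromosome 5, 100033577 to 100039664) was at 18.0, 17.3 and 16.7 scaled FPKM in the control libraries and at 85.8, 85.4 and 81.5 in the Al libraries. The 6 values formed separate sets, with a log2 fold change of 2.28 ± 0.09 (SE, adjusted P = 3.72e-06), the largest of any member. Its neighbour Hnrnpd (chromosome 5, 99955935 to 99978938), also known as AUF1, was at 11.2, 11.8 and 11.5 in the control libraries and at 41.0, 37.5 and 32.7 in the Al libraries. It rose by a log2 fold change of 1.67 ± 0.11 (SE, adjusted P = 1.07e-05). The related Hnrnpab, far more abundant at 187 to 224 in the control libraries, was not called (0.23), and its Al range of 208 to 262 overlapped the control range.

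Members of the A subfamily, which bind UAG-containing silencers and repress exon inclusion, did not move alike. Hnrnpa1, the most abundant member in all libraries, was at 281, 303 and 320 in the control libraries and at 775, 762 and 557 in the Al libraries. It rose by a log2 fold change of 1.20 ± 0.18 (SE, adjusted P = 0.000581), with every Al library above every control library, but it was not called as TPM (0.41) or with quantile normalization (0.28). Hnrnpa2b1, its paralog and a reader linked to m6A, was at 162, 181 and 172 in the control libraries and at 152, 151 and 167 in the Al libraries. The groups overlapped, and the 95% interval of its log2 fold change ran from -0.39 to 0.13. As deposited it was called lower (-0.62).

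Hnrnpa0, an intronless relative, was at 78.2, 80.2 and 75.4 in the control libraries and at 283, 275 and 172 in the Al libraries, a log2 fold change of 1.61 ± 0.19 (SE). Al replicate 3 was the lowest of the Al libraries for Hnrnpa0 and Hnrnpa1 and still lay above every control library. Hnrnpa3 rose by 1.29 on the log2 scale, but it has 21 processed copies with at least 95% identity and its value is uncertain. Unlike Hnrnpa0, Hnrnpa3 had its highest value in Al replicate 3.

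The H and F proteins bind G-rich runs in exons and introns. Hnrnph1 was at 88.8, 102 and 94.3 in the control libraries and at 78.3, 71.9 and 96.3 in the Al libraries, with overlapping groups and a 95% interval of -0.52 to 0.08. It was called lower as deposited (-0.71), with quantile normalization (-0.76) and as TPM (-1.01). The X-linked paralog Hnrnph2 rose by a log2 fold change of 1.15 ± 0.10 (SE, adjusted P = 3.01e-05), from 49.6 to 55.9 in the control libraries to 115 to 122 in the Al libraries. Hnrnpf, with 6 processed copies in the genome, rose by 0.82 but was not called as deposited (0.33), with quantile normalization (0.33) or as TPM (0.04). Hnrnph3 was not called at 2.12 to 3.29 across all libraries, a range that rests on 127 to 416 reads.

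Hnrnpc, which packages nascent transcripts, was at 38.0, 39.8 and 41.5 in the control libraries and at 86.6, 91.3 and 77.5 in the Al libraries. It rose by a log2 fold change of 1.09 ± 0.10 (SE, adjusted P = 4.27e-05). Hnrnpk, a poly(C)-binding protein, was at 134, 131 and 139 in the control libraries and at 185, 179 and 180 in the Al libraries. Its groups did not overlap, and its log2 fold change of 0.43 ± 0.11 (SE, adjusted P = 0.00687) stayed under the fold threshold and was -0.06 as deposited.

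Hnrnpu, a chromatin-associated scaffold protein, lay on the threshold at 0.59 and was not called without control replicate 1 (0.57), without control replicate 3 (0.57) or without Al replicate 1 (0.52). Hnrnpl and Hnrnpll, which regulate CD45 exons in lymphocytes, had log2 fold changes of 0.53 and 0.54. Both were called higher without Al replicate 3, at 0.65 and 0.63. Hnrnpul1, Hnrnpul2, Hnrnpm and Hnrnpr were not called, with log2 fold changes from -0.16 to 0.22. Hnrnpm was called lower as deposited (-0.64).

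The windows before the start sites are given for Hnrnpd (minus strand, chr5:99978939-99979058), which rose most among the hnRNPs with such a window, and Hnrnph1 (plus strand, chr11:50376870-50376989), the hnRNP with the lowest fold change.
Hnrnpd: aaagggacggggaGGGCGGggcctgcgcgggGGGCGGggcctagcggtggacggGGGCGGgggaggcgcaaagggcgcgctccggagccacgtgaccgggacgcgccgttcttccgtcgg
Hnrnph1: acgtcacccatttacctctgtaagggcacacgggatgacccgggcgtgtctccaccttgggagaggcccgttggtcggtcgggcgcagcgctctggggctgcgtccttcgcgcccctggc
The Hnrnpd window held 3 GC boxes and the Hnrnph1 window none of the 4 motifs.

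With size factors the Snrp proteins had the largest share called higher of the 4 groups. Of 11 tested, 10 were called higher and 0 lower, with a median log2 fold change of 1.18 and a range from 0.13 to 1.40. As deposited 7 were higher with a median of 0.69, with quantile normalization 6 with a median of 0.59, and as TPM 1 was higher and 1 lower with a median of 0.40. Of all genes, 26.2% were higher with size factors, 14.0% as deposited, 22.2% with quantile normalization and 9.30% as TPM, where 53.1% were lower. The count higher as TPM was thus near the share of all genes. Relative to genes of like length the median was 0.76. The group's summed scaled FPKM was 742 ± 68.7 in control cultures against 1714 ± 367 in Al cultures, and its share of the summed FPKM was 0.235% ± 0.0153 and 0.310% ± 0.0261 (SD, n = 3 each). Snrpn, the imprinted gene of a brain form of SmB, had at most 1 read in any library and was not tested. A count of 0 allows up to 3 reads, by counting error alone.

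All 7 genes of the Sm ring rose, with a median log2 fold change of 1.21 that was 0.72 as deposited and with quantile normalization and 0.42 as TPM. Snrpb, which encodes SmB and is known to adjust its own mRNA through a poison exon, was at 121, 124 and 127 in the control libraries and at 349, 363 and 277 in the Al libraries. It had the largest increase of the group, with a log2 fold change of 1.40 ± 0.14 (SE, adjusted P = 5.99e-05), and no overlap. Snrpd1 was at 46.0, 52.9 and 52.7 in the control libraries and at 137, 130 and 109 in the Al libraries, a log2 fold change of 1.30 ± 0.12 (SE).

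Snrpd3 was at 47.0, 63.9 and 68.0 in the control libraries and at 191, 156 and 116 in the Al libraries, a log2 fold change of 1.36 ± 0.20 (SE). Snrpd2, the most abundant Snrp gene, was at 151, 181 and 189 in the control libraries and at 514, 485 and 257 in the Al libraries. Its log2 fold change of 1.21 ± 0.26 (SE, adjusted P = 0.00339) carried a wide error and fell under the threshold as TPM (0.42) and with quantile normalization (0.49), and Al replicate 3 lay far below the other Al libraries. Snrpe (1.18) and Snrpg (1.14) were also lowest in Al replicate 3 among the Al libraries, at 125 and 155 scaled FPKM, above their control maxima of 81.3 and 105.

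Snrpf was the least abundant of the ring and the least certain. It was at 8.96, 10.4 and 8.88 in the control libraries and at 27.8, 12.8 and 12.9 in the Al libraries, so replicate 1 lay far above the other Al libraries, which still exceeded every control library. Without Al replicate 1 its log2 fold change was 0.46 and it was not called, and it was 0.33 as deposited, 0.39 relative to genes of like length and 0.04 as TPM. It shares exon sequence with Ccdc38 on the other strand. In 5 of the 6 libraries the order of the ring's levels was Snrpd2, Snrpb, Snrpg, Snrpe, Snrpd3, Snrpd1 and Snrpf, and in Al replicate 3 Snrpb stood above Snrpd2. The highest level was 16.9 to 21.3 times the lowest in the control libraries against 18.5 to 37.8 times in the Al libraries, although the proteins enter the ring in equal numbers.

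Particle-specific proteins gave a contrast between close relatives. Snrpa, a protein that binds a loop of U1 RNA, ranged from 34.0 to 41.6 in the control libraries and from 36.4 to 44.5 in the Al libraries, and was not called (0.13), although as TPM it was called lower (-0.66). Snrpb2, which arose from the same ancestor and binds U2 RNA, ranged from 12.3 to 15.4 and from 29.3 to 39.4, and rose by a log2 fold change of 1.29 ± 0.14 (SE, adjusted P = 9.19e-05). Snrpa1, the partner of Snrpb2 in the U2 particle, rose by 0.94, and Snrpc of the U1 particle rose by 1.04. Their windows are shown as Snrpb2 (plus strand, chr2:143062949-143063068) and Snrpa (minus strand, chr7:27196272-27196391).
Snrpb2: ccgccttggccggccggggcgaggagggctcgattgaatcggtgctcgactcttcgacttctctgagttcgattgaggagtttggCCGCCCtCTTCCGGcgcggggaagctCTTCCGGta
Snrpa: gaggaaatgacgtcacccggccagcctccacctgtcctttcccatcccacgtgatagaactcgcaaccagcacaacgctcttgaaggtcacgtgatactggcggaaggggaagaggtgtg
The Snrpb2 window held 2 ETS cores and 1 GC box, and the Snrpa window none of the 4 motifs.

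SF3A and SF3B are the subcomplexes of the U2 particle that hold it on the branch point. Of their 9 genes 6 were called higher and 0 lower, with a median log2 fold change of 1.07 that was 0.67 with quantile normalization, 0.58 as deposited and 0.28 as TPM. Over the 12 SF3 and U2AF genes 7 were higher and 0 lower, while as deposited 6 were higher and 2 lower, and as TPM 2 were higher and 4 lower. Of all genes, 26.2% were higher and 24.4% lower with size factors, 14.0% and 42.0% as deposited, and 9.30% and 53.1% as TPM. The summed scaled FPKM was 609 ± 21.02 in control cultures against 1081 ± 95.4 in Al cultures, and the share of the summed FPKM was 0.193% ± 0.00088 and 0.198% ± 0.0111 (SD, n = 3 each).

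Sf3b1 (chromosome 1, 54985169 to 55027481), the scaffold that clamps the branch point helix and is recurrently mutated in blood cancers, was at 40.1, 38.7 and 42.4 in the control libraries and at 110, 107 and 108 in the Al libraries. The spread within each group was small beside the difference, a log2 fold change of 1.42 ± 0.09 (SE, adjusted P = 1.14e-05). Sf3b4 was at 64.7, 57.4 and 69.0 in the control libraries and at 181, 183 and 136 in the Al libraries, a log2 fold change of 1.38 ± 0.14 (SE). Sf3b5 was at 57.2, 66.7 and 66.5 in the control libraries and at 199, 170 and 123 in the Al libraries, a log2 fold change of 1.35 ± 0.18 (SE).

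Sf3b3 rose by 1.16, Sf3b6, which touches the branch point adenosine, by 1.07, and Sf3a3 by 0.98. Sf3b2, the most abundant gene of the group in the control libraries, did not follow its partners. It was at 110, 111 and 114 in the control libraries and at 129, 133 and 122 in the Al libraries, a log2 fold change of 0.19 ± 0.10 (SE) that was not called, although as TPM it was called lower (-0.59). Sf3a1 (0.43) was not called. Sf3a2 ranged from 40.2 to 42.4 in the control libraries and from 29.1 to 31.0 in the Al libraries, the lowest fold change of any member at -0.46 ± 0.09 (SE, adjusted P = 0.0018), under the fold threshold and past it as deposited (-0.94).

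U2AF recognises the polypyrimidine tract and the AG at the end of the intron as a dimer of a large subunit, U2af2, and a small one, U2af1. U2af1 was at 46.5, 53.9 and 52.5 in the control libraries and at 114, 107 and 100.2 in the Al libraries, and rose by a log2 fold change of 1.07 ± 0.11 (SE, adjusted P = 5.83e-05). As deposited U2af1 lay on the threshold at 0.58, and its value was 0.28 as TPM and 0.65 relative to genes of like length. U2af2 was at 68.9, 67.2 and 75.1 in the control libraries and at 75.9, 77.3 and 64.4 in the Al libraries. Its groups overlapped, with a 95% interval of -0.21 to 0.29, but its log2 fold change was -0.45 as deposited and -0.46 with quantile normalization, and it was called lower as TPM (-0.75). U2af1l4, a paralog of the small subunit, ranged from 16.8 to 17.9 in the control libraries and from 13.1 to 14.8 in the Al libraries, and was not called (-0.31). It was called lower as deposited (-0.79) and as TPM (-1.09), and it overlaps Psenen on the other strand. For this group the windows are those of Sf3b1 (minus strand, chr1:55027479-55027598) and Sf3b3 (minus strand, chr8:110846804-110846923), the member of the group with the lowest fold change among those with such a window, although it was itself called higher.
Sf3b1: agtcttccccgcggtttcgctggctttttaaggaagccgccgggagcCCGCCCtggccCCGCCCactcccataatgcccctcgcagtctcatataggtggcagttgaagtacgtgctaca
Sf3b3: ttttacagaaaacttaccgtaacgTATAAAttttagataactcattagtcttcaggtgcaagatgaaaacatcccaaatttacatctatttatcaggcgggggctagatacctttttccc
The Sf3b1 window held 2 GC boxes and the Sf3b3 window 1 TATA box.

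Ratios between related members within a library do not change when a library is multiplied by 1 factor, as with size factors or TPM, while quantile normalization and the length offset can change them. Of 23 pairs listed, 21 had both genes tested, and for 15 of them the Al ratios did not overlap the control ratios, 7 with a higher ratio and 8 with a lower one. Among all single genes 35.1% stood wholly above and 33.1% wholly below in scaled FPKM, no such share was computed for other pairs of genes, and the count is therefore given as a description. The exact two-sided permutation test of 3 against 3 gave P = 0.1 for each of these, the smallest P this design allows, and 0.14 after Benjamini-Hochberg adjustment over the 21 pairs. In 9 pairs the mean log2 ratio moved by more than 0.58.

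The balance of the U2AF subunits turned. The ratio of U2af1 to U2af2 was 0.676, 0.803 and 0.6997 in the control libraries against 1.51, 1.38 and 1.55 in the Al libraries, so the small subunit passed from the lower to the higher FPKM. The ratio of Hnrnpa1 to Hnrnpa2b1 was 1.73, 1.67 and 1.86 in the control libraries against 5.09, 5.04 and 3.33 in the Al libraries. The ratio of Hnrnph1 to Hnrnph2 was 1.79, 1.87 and 1.69 in the control libraries against 0.641, 0.605 and 0.838 in the Al libraries, which reversed the order of the paralogs.

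Srsf4 and Srsf6, neighbouring branches of the SR family with long arginine- and serine-rich tails, also changed places. Their ratio was 0.459, 0.441 and 0.438 in the control libraries against 1.14, 1.18 and 1.08 in the Al libraries. The ratio of Snrpa to Snrpb2 fell in every Al library, from 2.98, 2.20 and 2.75 to 1.06, 1.22 and 1.24. Hnrnpab stood 16.5 to 19.3 times above Hnrnpd in the control libraries against 6.33 to 6.49 times in the Al libraries.

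Other pairs kept their ratio closely. Hnrnpl stood 4.67 to 4.91 times above Hnrnpll in the control libraries against 4.53 to 4.98 times in the Al libraries, and the ratio of Hnrnpul1 to Hnrnpul2 was 2.42 to 2.48 and 2.39 to 2.61. In the Sm ring, the ratio of Snrpe to Snrpg was 0.648 to 0.780 and 0.699 to 0.809. The ratio of Snrpd1 to Snrpd3 was 0.775 to 0.979 and 0.717 to 0.936. The overlap of these ranges, with P of 0.7 or more, does not show that the ratios were equal.

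**Figure D4:**
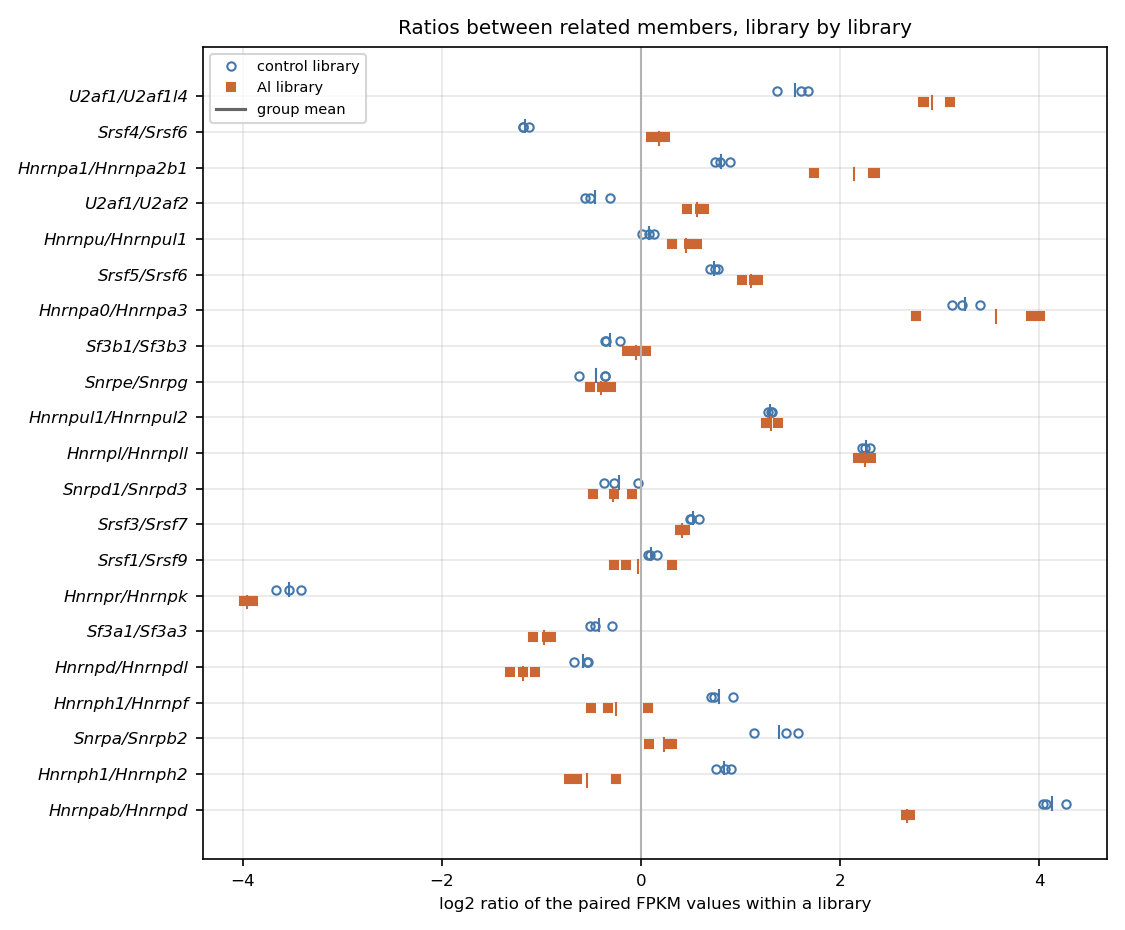
Log2 ratio of the FPKM of 21 pairs of related members in each library, with circles for control and squares for Al libraries and short lines at the group means, ordered by the difference between them. The ratios of U2af1 to U2af2, Srsf4 to Srsf6 and Hnrnph1 to Hnrnph2 cross 0 between the groups.

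Features of the members that the selection did not use were then compared with all genes. The median length over which reads were counted was 2585 bases for the members and 3288 for all tested genes, and 813 for the Snrp group. Fold changes fell with length among all genes, from a median of 0.45 among the shortest 1289 genes, which held 11 members, to -0.27 among the longest 1289. Relative to genes of like length the median of the members was 0.71, with 31 called higher and 1 (U2af1l4) lower against 24.6% and 25.4% of all genes, and that of the Snrp group was 0.76. Relative to genes of like GC content, a comparison chosen after the data had been seen, 34 were higher and 0 lower against 25.5% and 25.4% of all genes.

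In GENCODE, transcripts annotated as targets of nonsense-mediated decay are listed for 9 of the 10 tested SR genes, 10 of 20 hnRNPs, 4 of 11 Snrp genes and 4 of 12 SF3 and U2AF genes. Over all tested genes 27.9% have one. Of the 27 members with such a transcript 16 were called higher, and of the 26 without 17 were, and the difference between these counts was not tested. Gene-level FPKM adds productive and unproductive transcripts together, and isoforms were not analysed here.

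RefSeq promoters of 300 bases, from 250 before to 50 after the start, matched 48 members by symbol. The ETS core was present in 16 of them, against 9.93% of all genes with a promoter entry, with 6 of 9 SF3 and U2AF genes, 4 of 10 Snrp genes, 4 of 11 SR genes and 2 of 18 hnRNPs. GC boxes were present in 34 of the 48, against 38.2% of all genes with a promoter entry. CCAAT boxes were present in 24, against 41.1%, with 13 of 18 hnRNPs, and TATA boxes in 7, against 15.7%. This background held 27025 genes and was not limited to the tested genes, so it also holds genes with little or no expression here. Shares among the tested genes alone were not computed, and the part of expression in these contrasts was not tested. The ETS core was found in 12 of 29 members called higher and in 4 of 17 not called. For the other motifs these counts were 21 and 12 for the GC box, 14 and 9 for the CCAAT box, and 3 and 3 for the TATA box. The differences between these counts were not tested. These are matches of letters and not evidence of binding.

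Other genes of the splicing pathway and of related RNA processing, taken from lists that leave out the members, gave a mixed picture. Of 140 tested, 58 were called higher and 13 lower, where 26.2% and 24.4% of all genes were, with a median log2 fold change of 0.42. With FPKM as deposited 26 were higher and 30 lower, where 14.0% and 42.0% of all genes were, and as TPM 18 were higher and 45 lower, where 9.30% and 53.1% were. Proteins of the tri-snRNP and of the U1, U2, U5, U11 and U12 particles had 13 of 25 higher and 0 lower, with 5 higher and 0 lower as deposited and 4 higher and 3 lower as TPM. Prpf3, a U4/U6 protein, was at 12.4, 11.5 and 12.9 scaled FPKM in the control libraries and at 69.9, 67.1 and 58.1 in the Al libraries, a log2 fold change of 2.40 ± 0.10 (SE, adjusted P = 4.03e-06).

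The exon junction complex, which marks spliced junctions and hands the mRNA to decay and export factors, had 7 of 9 higher and 0 lower, with 4 higher and 1 lower as deposited and 2 higher and 1 lower as TPM. Of all genes, 26.2% were higher and 24.4% lower with size factors, 14.0% and 42.0% as deposited, and 9.30% and 53.1% as TPM. Rnps1 was its largest increase, at a log2 fold change of 1.74 ± 0.11 (SE), from 21.2, 22.6 and 24.2 to 86.9, 73.4 and 68.6. SR protein kinases and SR-related proteins had 10 of 20 higher and 0 lower. As deposited 5 were higher and 4 lower, and as TPM 4 and 4, where 42.0% and 53.1% of all genes were lower. Clk1, a kinase that phosphorylates SR proteins, was at 23.3, 28.9 and 24.6 in the control libraries and at 75.9, 73.0 and 107 in the Al libraries, a log2 fold change of 1.72 ± 0.16 (SE).

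Proteins of the catalytic steps and of the Prp19 complex had 9 of 21 higher and 1 lower, with 4 higher and 2 lower as deposited and 2 higher and 4 lower as TPM. Of all genes, 26.2% were higher and 24.4% lower with size factors, 14.0% and 42.0% as deposited, and 9.30% and 53.1% as TPM. The count higher as TPM was thus near the background share. The helicase Dhx38 rose by 1.41 and the helicase Dhx16 fell by 0.60 on the log2 scale. Lsm proteins, ring-forming relatives of the Sm proteins, had 4 of 10 higher and 3 lower, the latter near the 24.4% of all genes, and 1 higher and 4 lower both as deposited and as TPM, where 42.0% and 53.1% of all genes were lower. Lsm3 rose by 1.48 and Lsm8, the subunit that directs the ring to U6 RNA, fell by 1.22, from 25.7, 30.3 and 28.9 to 10.6, 11.2 and 14.6. The other lower calls were Lsm10 (-1.14) and Lsm11 (-0.86), and not every Lsm protein acts in splicing.

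The SMN complex, which loads the Sm ring onto small nuclear RNAs, had 3 of 12 higher, near the background share, and 2 lower. As deposited 2 were higher and 4 lower against 14.0% and 42.0% of all genes, and as TPM 1 was higher and 7 lower against 9.30% and 53.1%, also near the background. Ddx20 rose by 1.58 and Gemin8 fell by 1.27. Among 33 other splicing regulators 9 were higher and 7 lower, both near the share of all genes. The counts were again near it as deposited, with 4 higher and 12 lower against 14.0% and 42.0%, and as TPM, with 3 higher and 17 lower against 9.30% and 53.1%. The extremes were Pcbp1, a poly(C)-binding protein, at 2.07 and Celf2, a regulator of brain and muscle exons, at -1.38. The nonsense-mediated decay list had 3 of 10 higher, also near the background share, and 0 lower, with Smg8 at 2.21. As deposited 1 was higher and 3 lower, and as TPM 1 was higher and 5 lower, which is near the same shares of all genes.

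**Figure D5:**
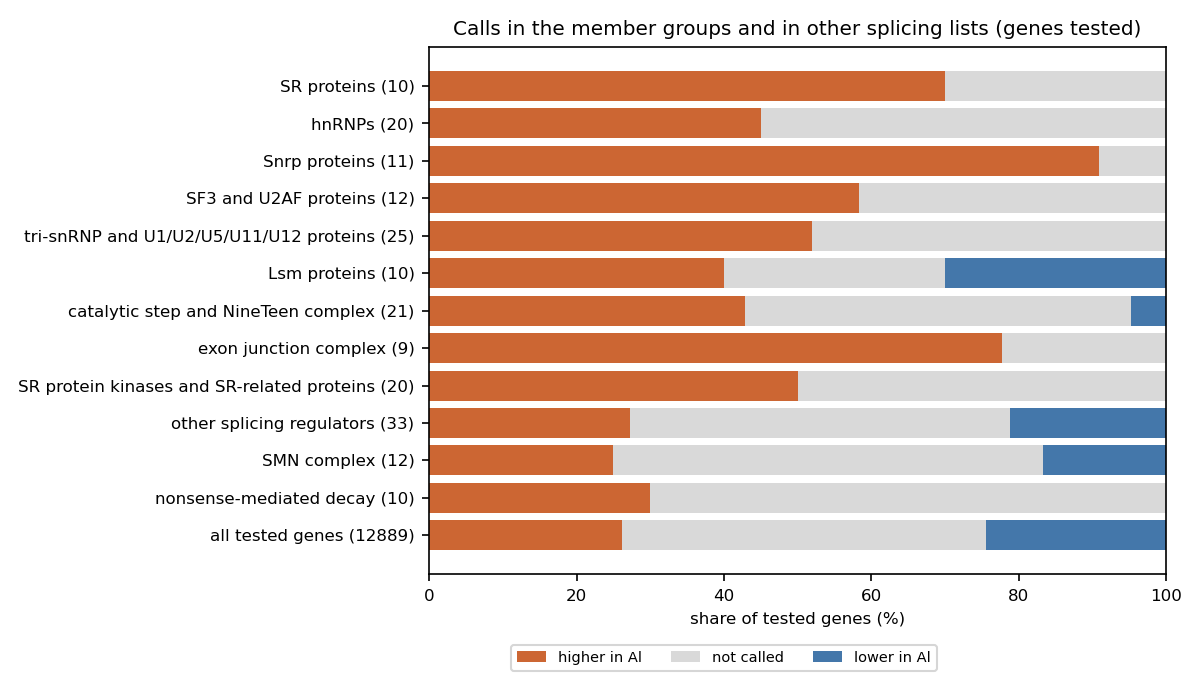
Share of tested genes called higher (orange), not called (grey) and lower (blue) in the Al group, for the 4 member groups, 8 other lists of splicing genes and all tested genes, with the number tested in brackets. The Snrp proteins (90.9% higher) and the exon junction complex (77.8%) stand above the 26.2% of all genes with the libraries scaled by size factors, and the SMN complex (25.0%) lies near it.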

How the data were processed

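The deposited table holds 1 FPKM value per gene symbol and library, computed by the authors per kilobase of gene and per counted depth of the library, with no scaling between libraries. The study's methods give Trimmomatic, SortMeRNA and HISAT2 on GRCm38/mm10, while the submitters' processing notes list fastp, HISAT2, HTSeq and GRCm39, and the series' design text names a BosGru assembly, which is not a mouse genome. The libraries were made with a stranded TruSeq mRNA kit. The program and annotation behind the FPKM and the strand setting of the counting are not given in the sources used here. The treated samples carry the letter M in the labels and were read as the Al group from the study's text.

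The FPKM of a gene is a whole multiple of a step, and whole reads were recovered within at most 0.01 reads for the 17688 genes above 0. Of these, 17673 also gave a whole gene length within 0.001 bases. The reads on listed genes ran per library from 21047132 to 44374043.

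Libraries were brought to 1 scale by median-of-ratios size factors (0.799 to 1.20), computed over genes detected in every library at a mean FPKM of 1 or more. Tests were run with limma 3.58.1 (R 4.3.3, lmFit and eBayes with trend) on log2(scaled FPKM + 0.1) over genes averaging 0.1 FPKM or more, so fold changes of low genes are understated. Calls used the study's thresholds, and P values were adjusted by Benjamini-Hochberg across the 12889 genes tested. Intervals are at 95%. The procedure was tested on simulated tables for the Al against control comparison, with 12602 genes of which 200 had been given a log2 fold change of 2, and found 99.5% of these and 0.37% of the rest. Most genes were left unchanged in the simulation, unlike in these data. It therefore cannot measure errors that come from the scaling between libraries. Ratios were tested with an exact permutation test. Positions, transcript types and overlaps came from GENCODE on GRCm38, and genomic copies from minimap2 2.31-r1302 (at least 80% of the copy at 95% identity). Other steps used Python 3.11.15 with scipy 1.17.1, pandas 2.3.3 and numpy 2.4.6.

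In each group, values by library are given for the 3 called members with the largest rise and the 3 with the largest fall, for the most abundant member, and for 14 listed by name, some of which also meet the other criteria, so that the rule named 24 members. From each other splicing list, the called gene with the largest rise and the one with the largest fall are named. Values by library for Snrpf, ranges and pair ratios were added for members that these results turn on, after their values were seen. The members, lists and pairs were chosen with earlier results of these data known. The labels number the replicates 1 to 3 in both groups. The deviations of same-numbered libraries from their group means correlated at -0.0766, -0.0599 and -0.112, so the numbers were not taken to pair the libraries. The P values measure the spread between cultures of 1 line.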

Additional observations from a re-analysis of the deposited data

How the results depend on the processing

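The counts of members called higher or lower changed with the scaling between libraries, and the cause was not tested. As TPM, 8 members were higher and 12 lower, with 2 and 2 SR proteins, 3 and 5 hnRNPs, 1 and 1 Snrp proteins and 2 and 4 SF3 and U2AF proteins. With FPKM as deposited, 6 members were lower, made up of 1 SR protein, 3 hnRNPs and 2 SF3 and U2AF proteins. With quantile normalization 4 were lower, 3 of them hnRNPs and 1 an SF3 protein, and 6 Snrp proteins were higher. Of all genes, 9.30% were higher and 53.1% lower as TPM, 42.0% were lower as deposited, and 22.2% were higher and 24.2% lower with quantile normalization. With a length offset, alone or with the replicate block, 1 member was lower, U2af1l4. Of the other splicing genes, 26 were higher and 30 lower as deposited, 18 and 45 as TPM, and 30 and 7 with an adjusted P under 0.05 and a log2 fold change beyond 1.

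The direction of the log2 fold change turned for single members that were not called, and as TPM also for the called members Hnrnpu, Srsf1 and Srsf9. As deposited it was -0.26 for Hnrnpab, -0.31 for Hnrnph3, -0.057 for Hnrnpk, -0.47 for Hnrnpr, -0.27 for Hnrnpul1, -0.28 for Hnrnpul2, -0.058 for Sf3a1, -0.29 for Sf3b2, -0.36 for Snrpa, -0.21 for Srsf10, -0.29 for Srsf5 and -0.45 for U2af2. As TPM it was -0.56 for Hnrnpab, -0.60 for Hnrnph3, -0.36 for Hnrnpk, -0.25 for Hnrnpl, -0.24 for Hnrnpll, -0.77 for Hnrnpr, -0.20 for Hnrnpu, -0.57 for Hnrnpul1, -0.58 for Hnrnpul2, -0.36 for Sf3a1, -0.59 for Sf3b2, -0.66 for Snrpa, -0.15 for Srsf1, -0.51 for Srsf10, -0.58 for Srsf5, -0.012 for Srsf9 and -0.75 for U2af2. With quantile normalization it was -0.49 for Hnrnpab, -0.22 for Hnrnpk, -0.11 for Hnrnpl, -0.30 for Hnrnpul1, -0.050 for Hnrnpul2, -0.41 for Sf3b2, -0.19 for Snrpa, -0.34 for Srsf5 and -0.46 for U2af2. With a length offset, alone or with the replicate block, it was -0.11 for Snrpa and -0.029 for Srsf5.

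With the replicate number as a block, 33 members were higher and 0 lower, and no member's call changed. The same counts were found with a pseudocount of 0.01 or 1, without the filter or with a mean FPKM of at least 1, without the trend, at an adjusted P under 0.05, with voom on the recovered reads and with reads thinned to the smallest library. Leaving out 1 library at a time gave 31 to 35 members higher and 0 lower, with 7 SR proteins, 8 to 11 hnRNPs, 9 to 10 Snrp proteins and 7 SF3 and U2AF proteins. It gave 57 to 59 other splicing genes higher and 12 to 13 lower, and 15 to 17 pairs without overlap. The direction turned for Hnrnpr, which ranged from -0.042 (without control replicate 3) to 0.047 and was also below 0 without Al replicate 1. It turned for Hnrnph3, which ranged from -0.0035 (without control replicate 3) to 0.30, and for U2af2, which ranged from -0.0050 (without control replicate 2) to 0.14.

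With 3 libraries a group, a ratio cannot pass 0.05 in the exact test. Al libraries were shallower than control libraries, and Al replicate 3 was the lowest Al library for 36 of the 53 members, with a median difference of 0.71 from the control mean on the log2 scale against 1.12 and 1.02 for replicates 1 and 2.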
